A study of Mus musculus with 15 samples.

Results

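The enzymes and regulators described here act on SR proteins, the splicing factors with tails of repeated arginine and serine residues, or resemble them. They are the kinases Clk1, Clk2, Clk3 and Clk4, the kinases Srpk1 and Srpk2, the Tra2 splicing factors Tra2a and Tra2b, and the SR-rich nuclear proteins Thrap3 and Bclaf1. These 10 genes of the 55536 annotated in the count tables were chosen by symbol and matched to GENCODE M21 identifiers. Earlier results of these data were known when they were chosen.

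CD8+ T cells of OT-I Tg donors, which carry a transgenic receptor for an ovalbumin peptide, had been transferred into C57BL/6J recipients. The study's methods give OT-I mice as lacking Rag1 or Rag2 and do not say which for these samples. Recipients in the Ag group were given antigen, the peptide SIINFEKL, with control IgG. The Ag+Costim group had the same antigen with agonist antibodies against OX40 and 41BB, receptors that costimulate T cells. CD8+ T cells were sorted from spleen and lymph nodes, on day 4 by the labels and somewhat earlier in parts of the study's text. Mice of both sexes were used, and neither sex nor age is tied to the groups. Poly(A) RNA of 5 Ag and 5 Ag+Costim libraries was compared. The labels also list Naive cells of OT-I mice without transfer, which were not analysed here.

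SRPK kinases phosphorylate SR proteins mainly in the cytoplasm, which lets these proteins enter the nucleus. CLK kinases phosphorylate them further in the nucleus and release them from nuclear speckles for use in splicing. Clk transcripts are the textbook case of detained introns: spliced, polyadenylated RNA that keeps 1 or a few introns stays in the nucleus and can be spliced later. Tra2a and Tra2b bind GA-rich RNA, activate exons there, and limit their own production by including a poison exon. Such an exon brings in an early stop codon and sends the transcript to nonsense-mediated decay (NMD). Thrap3 and Bclaf1 are related proteins that take part in mRNA splicing and export and in the response to DNA damage.

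Depth and composition differed between the Ag libraries more than between the Ag+Costim libraries. Estimated counts came to 59.6 to 449.4 M (mega) per library in Ag and 332.3 to 639.1 M in Ag+Costim. Genes with a count were 48058, 21779, 51778, 40441 and 20714 in Ag 1 to 5, and 28727 to 30340 in Ag+Costim. Pearson correlations of log2 CPM (counts scaled to a common library total) ran from 0.738 to 0.976 among Ag libraries and from 0.97 to 0.987 among Ag+Costim libraries. Summed CPM of 6 proliferation genes was 426 and 459 in Ag 1 and Ag 4, and 2012 to 3976 in the other libraries. The nuclear RNAs Malat1 and Neat1 summed to 2289 and 2373 CPM in Ag 1 and Ag 4, and to 239 to 695 elsewhere. Ag 3 was the shallow library and held the highest sums of 5 B cell markers (293 CPM) and 3 erythroid markers (668 CPM). B cell markers summed to 112 and 141 CPM in Ag 1 and Ag 4 and to 14.4 to 31.9 CPM in the remaining libraries. CD8 T cell markers summed to 3627 to 7076 CPM in every library. Among them Gzmb stood at 8.28 and 16.8 CPM in Ag 1 and Ag 4, and at 245 to 731 CPM in the other libraries. Sums were 0.885 to 11.4 CPM for 3 CD4 T cell markers and 33.3 to 141 CPM for 5 myeloid markers. The part of these differences in the results below was not tested. The main results below were also computed without Ag 1, Ag 3 and Ag 4.

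Clk genes share an intron and exon arrangement that the annotation marks as often unspliced. In each, transcripts typed as retained intron keep the introns on either side of a short alternative exon. The exon measured 91 nt in Clk1, 85 nt in Clk2, 97 nt in Clk3 and 91 nt in Clk4. Each length leaves a remainder of 1 when divided by 3, so skipping it shifts the reading frame. The exons of Clk1 and Clk4 were identical at 93.4% of their 91 bases. The 30 bases across the start of each exon are shown because they hold the 3′ splice site that ends the upstream intron, with its AG in capitals (mm10, transcript strand).
Clk1 (chr1:58420206-58420235, minus strand): gtgccgcccacttgacgtgtccAGaagagt
Clk2 (chr3:89169594-89169623, plus strand): accccccccaccccccgacagcAGcacagc
Clk3 (chr9:57758718-57758747, minus strand): cgtttcggggggcggtgcatgcAGagaagc
Clk4 (chr11:51273054-51273083, plus strand): ggtgctgcccacttgccgttccAGaagagc
The 30 bases across the end of each exon hold the 5′ splice site of the downstream intron, with its GT in capitals.
Clk1 (chr1:58420097-58420126, minus strand): caagatGTatagaatatttttcaacactta
Clk2 (chr3:89169697-89169726, plus strand): agcgatGTacaagccaaatcgtaacaatcc
Clk3 (chr9:57758603-57758632, minus strand): agcgatGTacagccacctttcgtaaaactt
Clk4 (chr11:51273163-51273192, plus strand): caagatGTatagaatatttttcaacacttt

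All 4 of these 5′ splice sites matched only 3 of the first 6 bases of the consensus GTAAGT. Among 6418 annotated retained introns with GT and AG ends, the median was 4 matches, and 16.2% had 3 or fewer. Of the 20 bases before the AG that ends the upstream intron, 13 were pyrimidines in Clk1, 15 in Clk2, 9 in Clk3 and 15 in Clk4. The median over the same introns was 15, and 1.3% had 9 or fewer, as in Clk3. Base composition set Clk1 and Clk4 apart from Clk2 and Clk3. GC content was 33% and 26.4% in the upstream and downstream introns of Clk1, and 36.7% and 34% in those of Clk4. It was between 50% and 56.1% in Clk2 and Clk3, near the median of 51.1% over retained introns. Only 0.4% of retained introns had a GC content at or below that of the downstream intron of Clk1. These matches describe the letters in the windows and were not tied to any measured binding.

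**Figure D1:**
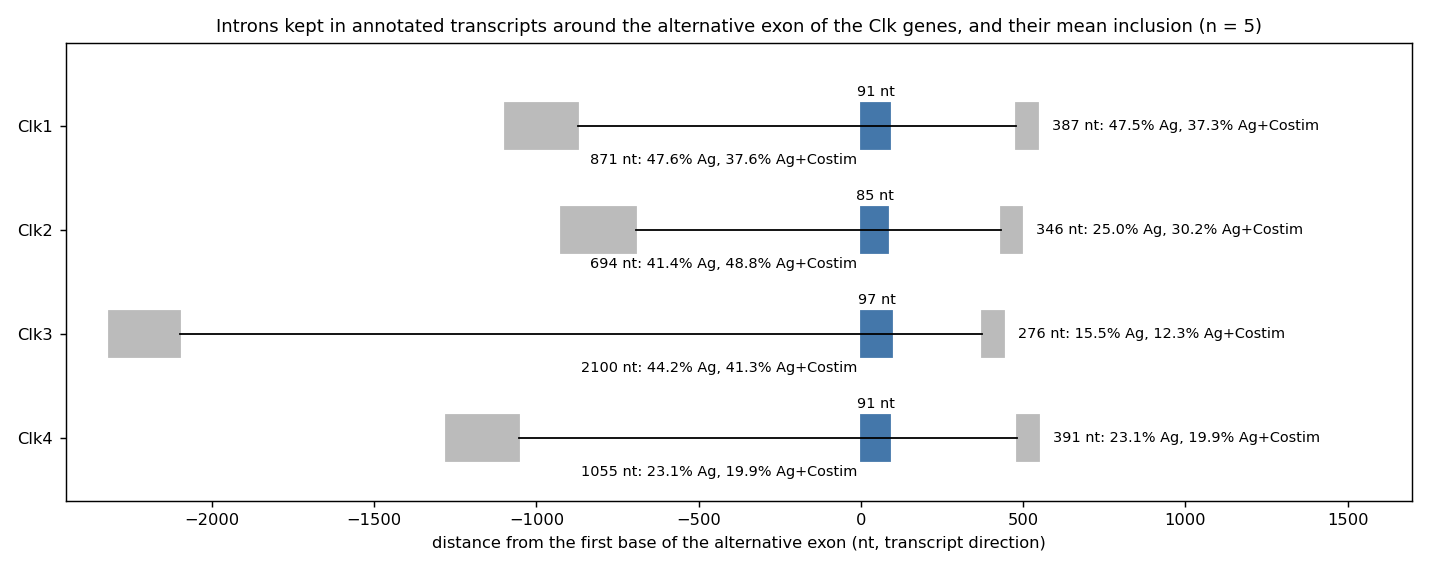
Map of the alternative exon (blue) of Clk1 to Clk4, the introns on either side (lines) and the neighbouring exons (grey), drawn to scale in nt from the first base of the alternative exon in the direction of transcription. Labels give each intron's length and its mean inclusion over 5 Ag and 5 Ag+Costim libraries. These means were between 12.3% and 48.8%, with the lowest values at the downstream intron of Clk3. Transcripts that skip the alternative exon are not part of inclusion.

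Intron inclusion was the percentage of counts on transcripts that keep an intron, among those that keep it or splice out exactly that intron. Transcripts that skip the alternative exon remove it within a longer intron and were in neither count. For Clk1 this left out Clk1-210, with 33.8% and 39% of Clk1 counts in Ag 2 and Ag 5. Clk1-210 held 20.8% to 24.5% in the other Ag libraries and 20% to 42% in Ag+Costim. At the Clk1 intron of 387 nt, inclusion was 37.7%, 60.8%, 42.4%, 41.4% and 54.9% in Ag 1 to 5. In Ag+Costim 1 to 5 it was 42.1%, 32.7%, 40.7%, 28.2% and 43.1%. The groups overlapped (47.5% ± 9.9 in Ag against 37.3% ± 6.6 in Ag+Costim, SD, n = 5, exact permutation p = 0.119, adjusted p = 0.498). Ag 2 and Ag 5 were the 2 highest libraries. With Ag 1, Ag 3 and Ag 4 left out, inclusion in Ag+Costim was 20.5 percentage points below Ag. The exact permutation p of 0.0476, the smallest that 2 against 5 libraries allow, follows from keeping the 2 highest libraries and is no evidence of a difference. In that setting 4.1% of 6542 introns were higher in Ag without overlap and 19.9% higher in Ag+Costim. The Clk1 intron of 871 nt followed that of 387 nt closely, since the same transcripts keep both, with 47.6% in Ag against 37.6% in Ag+Costim. Inclusion of the upstream intron was 41.4% and 48.8% in Clk2, 44.2% and 41.3% in Clk3 and 23.1% and 19.9% in Clk4, in Ag and Ag+Costim in that order. None of these differences was beyond the spread between libraries (exact permutation p between 0.389 and 0.746).

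Skipping of the alternative exon was annotated as well. Clk1-210 and Clk2-204, both typed as NMD, lack it and meet a stop codon in the next exon, the fourth of 12, with 8 exons still to follow. The sequences around these stops are shown because they mark where the shifted frame ends, with the stop in capitals.
Clk1-210 (chr1:58419699-58419728, minus strand): attgttgatacttTAGgtgaaggtgctttc
Clk2-204 (chr3:89170049-89170074, plus strand): atgaaattgTAAgcaccttaggagaa
Clk1-210 took 28.1% of Clk1 counts in Ag and 33.6% in Ag+Costim (exact permutation p = 0.302, BH = 0.689). Clk2-204 took 10.9% of Clk2 counts in Ag and 10.7% in Ag+Costim (exact permutation p = 0.905, BH = 0.978). BH is the Benjamini-Hochberg adjusted p over the same measure in all genes.

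Clk1 was the member with the widest spread of gene counts among Ag libraries. It stood at 198, 99.4, 72.1, 271 and 70.8 CPM in Ag 1 to 5, and at 116, 106, 91.3, 85.6 and 83 CPM in Ag+Costim 1 to 5. Ag 1 and Ag 4 were above every other library, while Ag 3 and Ag 5 were below all Ag+Costim libraries. The log2 fold change (Ag+Costim over Ag, negative where lower in Ag+Costim) was -0.56 ± 0.37 (SE, edgeR quasi-likelihood test, BH = 0.36). Clk4 behaved alike. It had 80.7, 63.1, 44.1, 104.9 and 51.5 CPM in Ag 1 to 5 and 48.8 to 68.2 CPM in Ag+Costim, a log2 fold change of -0.28 (BH = 0.461). The log2 CPM of Clk1 and Clk4 correlated at r = 0.962 over the 10 libraries, which shared the contrast between Ag 1 and Ag 4 and the rest. Without Ag 1, Ag 3 and Ag 4 the log2 fold changes were 0.21 for Clk1 (BH = 0.468) and 0.017 for Clk4 (BH = 0.956).

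Counts on retained intron transcripts made up a smaller share of Clk1 in Ag+Costim. This share was 30.6%, 36.8%, 33.3%, 34.6% and 31.7% in Ag 1 to 5 and 26.4%, 27.4%, 26%, 21.3% and 26.2% in Ag+Costim 1 to 5. Every Ag library was above every Ag+Costim library, although Clk1 itself ran from 70.8 to 271 CPM among the Ag libraries. The means were 33.4% ± 2.4 and 25.4% ± 2.4 (SD, n = 5), a difference of -7.98 percentage points (exact permutation p = 0.00794, the smallest that 5 against 5 libraries allow, BH = 0.241 over 6517 genes). Of those 6517 genes, 3.19% had a retained intron share without overlap that was higher in Ag, and 0.107% had one higher in Ag+Costim. Among the 10 members, 2 were without overlap and higher in Ag (Clk1 and Tra2b) and 0 were higher in Ag+Costim. No gene passed BH at 0.05. The difference for Clk1 was -8.84 percentage points without Ag 1, Ag 3 and Ag 4. After division of each transcript's counts by its length it was -4.23 percentage points (exact permutation p = 0.0397). On that scale the groups overlapped for Clk1, with 16.2% in Ag 5 and 13% to 17.2% in Ag+Costim. The members without overlap were then Tra2b and Bclaf1, both higher in Ag.

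A lower retained intron share was common to most genes in the 10 libraries, so the direction alone did not single out the members. On average the share was higher in Ag in 89.0% of all genes measured and in 8 of the 10 members. Over all protein-coding genes together, retained intron transcripts held 5.56%, 2.82%, 4.14%, 5.36% and 2.25% of counts in Ag 1 to 5 and 2.57% to 3.22% in Ag+Costim. Ag 1, Ag 3 and Ag 4, which also had the most genes with a count, were above all Ag+Costim libraries, and Ag 5 was below them. Without those 3 libraries, 17.3% of genes had a share without overlap that was higher in Ag+Costim and 5.19% had one higher in Ag. Clk1 and Tra2b remained among the latter, and 3 members were then among the former.

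Retained intron shares of the other kinases overlapped between the groups. The means in Ag and Ag+Costim were 22.9% and 28.3% in Clk2 (exact permutation p = 0.413), 43.7% and 40.9% in Clk3 (exact permutation p = 0.746) and 23.6% and 20.8% in Clk4 (exact permutation p = 0.54). They were 51.3% and 58.6% in Srpk1 (exact permutation p = 0.683) and 12.3% and 7.1% in Srpk2 (exact permutation p = 0.0952). Clk3 ran from 18.8% in Ag 5 and 25.8% in Ag 2 to 67% in Ag 4, against 37.6% to 43.6% in Ag+Costim. Leaving out Ag 1, Ag 3 and Ag 4 therefore turned its difference from -2.77 to 18.6 percentage points, and that of Clk4 from -2.82 to 4.64. The difference for Srpk1 went from 7.36 to 41.8 percentage points (exact permutation p = 0.0952) and that for Clk2 from 5.35 to 14.3 (exact permutation p = 0.143). For Srpk2 it went from -5.16 to -0.028 percentage points (exact permutation p = 1).

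**Figure D2:**
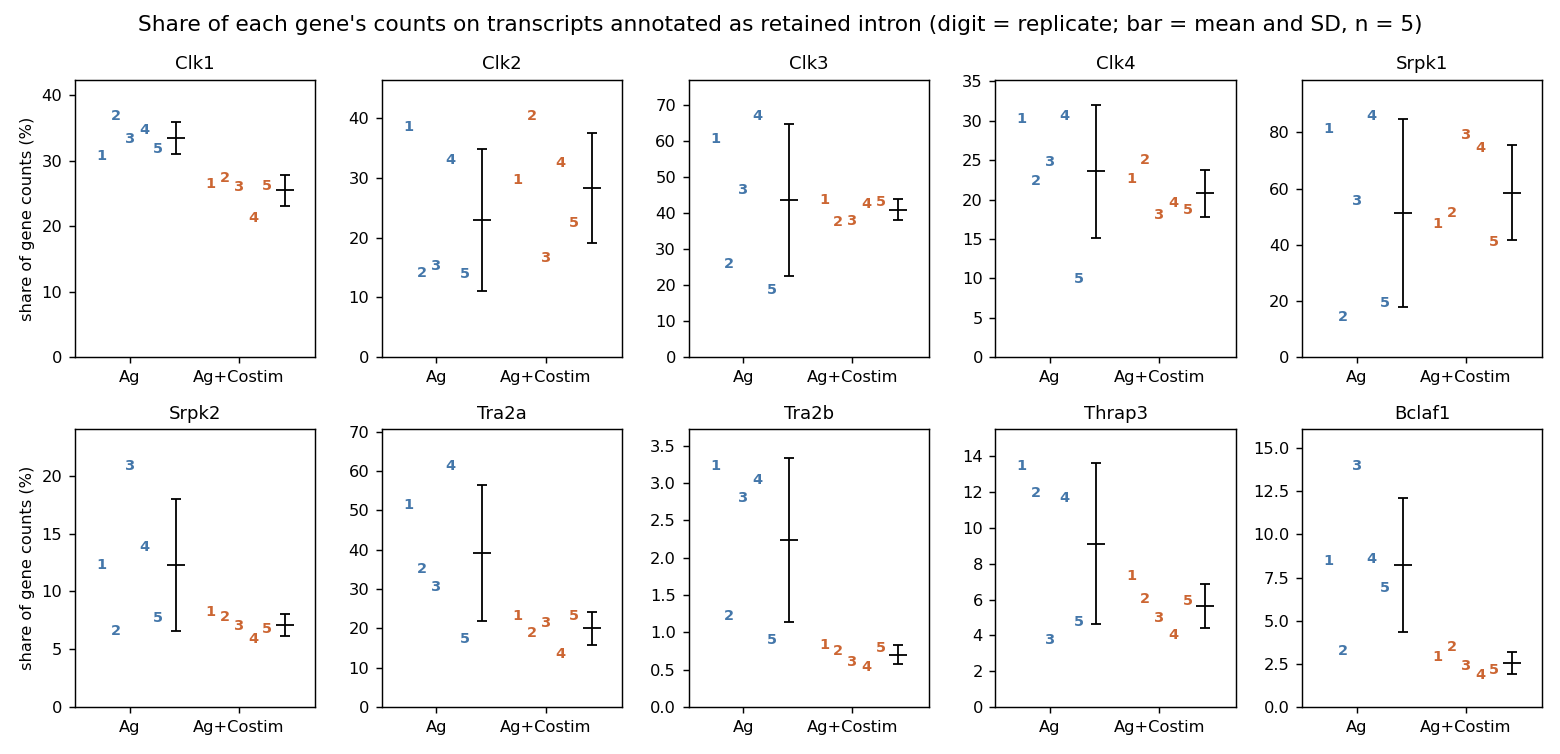
Share of each gene's counts on transcripts annotated as retained intron, in percent, for the 10 genes. Digits are the replicate numbers of the Ag (blue) and Ag+Costim (orange) libraries, and bars are the mean and SD of 5 libraries. The Ag libraries of Clk1 (30.6% to 36.8%) lie above its Ag+Costim libraries (21.3% to 27.4%), while those of Clk3 and Srpk1 spread over most of the axis.

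Which retained transcript of Clk1 was counted differed among the Ag libraries. Clk1-212 keeps the introns of 387 and 871 nt, and Clk1-204 keeps those and another of 87 nt. Clk1-212 held 25.7% and 24.1% of Clk1 counts in Ag 2 and Ag 5, against 7.46% to 8.99% in the other Ag libraries and 5.68% to 10% in Ag+Costim. Clk1-204 held 8.96% and 6.46% in Ag 2 and Ag 5, and 12% to 21.9% in the other 8 libraries. The coding transcript Clk1-201 averaged 34.4% in Ag against 38.2% in Ag+Costim (exact permutation p = 0.579, BH = 0.837).

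The other Clk genes were divided among coding and retained intron transcripts. Clk2-203 and Clk2-201, both coding, took 38.5% and 18.5% of Clk2 counts in Ag, with 34.4% and 19.2% in Ag+Costim. Clk2-207, which keeps both introns around the alternative exon, took 20.9% in Ag, with 26% in Ag+Costim. For Clk3, coding Clk3-201 took 41.5% in Ag, with 39.1% in Ag+Costim. Clk3-207 keeps the upstream intron (27.7% in Ag, 28.2% in Ag+Costim) and Clk3-203 keeps both introns (15% in Ag, 11.9% in Ag+Costim). Clk4 was mostly coding Clk4-201 (63.8% in Ag, 66.6% in Ag+Costim), followed by Clk4-213, which keeps both introns around the alternative exon and 2 further ones (19.2% in Ag, 16.5% in Ag+Costim). Clk3 overlaps Edc3 and Clk4 overlaps BC049762, each on the opposite strand.

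Clk2 and Clk3 had higher mean CPM in Ag+Costim than in Ag. Clk2 had 49.2, 35.2, 30.9, 57.2 and 37.1 CPM in Ag 1 to 5 and 50.3 to 59.4 CPM in Ag+Costim. Ag 4 lay within the Ag+Costim range and the other Ag libraries lay below it (log2 fold change 0.40 ± 0.17, SE, edgeR, BH = 0.268). Leaving out Ag 1, Ag 3 and Ag 4, the same test gave 0.64 (BH = 0.0108). Clk3 had 59.9 to 102.6 CPM in Ag against 86.4 to 106.3 CPM in Ag+Costim, a log2 fold change of 0.20 (edgeR, BH = 0.431). By total or upper quartile scaling that value was -0.058 or -0.027. Clk3-205, a coding transcript, held 11.4%, 14.1%, 13.5%, 11.9% and 12.5% of Clk3 counts in Ag 1 to 5. It held 19.4%, 16.1%, 18.4%, 14.9% and 21.3% in Ag+Costim 1 to 5, above all Ag libraries (exact permutation p = 0.00794, BH = 0.31). This was the case, with the share higher in Ag+Costim, for 1.71% of the 17735 transcripts that held 10% or more of a gene's counts in either group, and for 0.851% with the share higher in Ag.

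Srpk1 and Srpk2 had the closest group means by TMM scaling. Srpk1 ranged from 121.1 to 233.4 CPM in Ag and from 175.5 to 182.9 CPM in Ag+Costim, a log2 fold change of 0.00 ± 0.18 (SE, edgeR, BH = 0.99). The sign of that value changed with the scaling. Srpk2 had 64.4 ± 12.7 CPM in Ag against 61.5 ± 2.4 CPM in Ag+Costim (SD, n = 5, edgeR adjusted p = 0.781). Its gene overlaps Kmt2e on the opposite strand, and the library kit does not mark strand. Coding Srpk2-201 held 84.1% of its counts in Ag, with 89.5% in Ag+Costim (exact permutation p = 0.119). Srpk2-205 and Srpk2-203, typed as retained intron, held 5.17% and 5.09% in Ag, with 4.21% and 2.55% in Ag+Costim (exact permutation p = 0.643 and 0.0238). Most Srpk1 counts were on Srpk1-212 and Srpk1-204. Srpk1-212, typed as retained intron, held 78.1%, 12%, 49.6%, 83.3% and 17% of Srpk1 counts in Ag 1 to 5. Its coding counterpart Srpk1-204 held 13.7%, 79.5%, 39.1%, 8.03% and 74.5%. Srpk1-212 keeps an intron of 373 nt (chr17:28599870-28600242) that Srpk1-204 splices out. Inclusion of this intron was 53.6% in Ag against 60.1% in Ag+Costim (exact permutation p = 0.706). Srpk1-212 held 48% in Ag against 57.4% in Ag+Costim (exact permutation p = 0.643, BH = 0.872). Ag 2 and Ag 5 lay below all Ag+Costim libraries (39.7% to 77.9%), while Ag 1 and Ag 4 lay above them. Without Ag 1, Ag 3 and Ag 4 the largest change of a Srpk1 transcript's mean share was 42.9 percentage points (edgeR diffSpliceDGE, BH = 0.073).

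Another Srpk1 intron, of 412 nt (chr17:28600457-28600868), was included at 2.04% in Ag against 0.693% in Ag+Costim without overlap (exact permutation p = 0.00794, BH = 0.333). The closest libraries were Ag 5 at 1.018% and Ag+Costim 1 at 1.012%. The difference was -1.35 percentage points, and -0.50 without Ag 1, Ag 3 and Ag 4 (exact permutation p = 0.0952). By counts per transcript length the groups overlapped at this intron (exact permutation p = 0.0159). Of 6542 annotated retained introns measured, 2.25% were without overlap and higher in Ag and 0.138% higher in Ag+Costim. The members held 22 of these introns, some of which overlap where an exon between them can be skipped. Of them 3 were without overlap and higher in Ag, this one and 2 of Tra2b that a single transcript keeps, and 0 were higher in Ag+Costim.

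With all 10 libraries, Tra2b was the member with the largest fold change. It had 130, 320, 176, 155 and 235 CPM in Ag 1 to 5 and 418, 434, 383, 509 and 381 CPM in Ag+Costim 1 to 5. All Ag+Costim libraries were above all Ag libraries, and the lowest Ag values were in Ag 1 and Ag 4. The log2 fold change was 1.06 ± 0.24 (SE, edgeR, unadjusted p = 0.0011, BH = 0.152). In edgeR 0% of 24262 genes were called, members included, and 4501 genes had an unadjusted p under 0.05, among them 5 members. Thrap3 varied less among the libraries of a group. It had 130, 149, 129, 149.9 and 146 CPM in Ag 1 to 5 and 246, 261, 253, 270.0 and 251 CPM in Ag+Costim 1 to 5. Its log2 fold change was 0.87 ± 0.12 (SE, edgeR, unadjusted p = 1.5e-05, BH = 0.117). Tra2b and Thrap3 are in a list of upregulated genes that the study chose in part on these samples, so their direction here is not independent evidence.

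Tra2a, the paralogue of Tra2b, had 35, 27, 27.4, 39.9 and 27.7 CPM in Ag 1 to 5 and 46.9, 53.3, 46.7, 54.7 and 43.7 CPM in Ag+Costim 1 to 5. The groups did not overlap, with a log2 fold change of 0.64 ± 0.15 (SE, edgeR, BH = 0.153). Bclaf1, related to Thrap3, had 113, 137, 128, 121 and 102 CPM in Ag 1 to 5 and 168, 154, 163, 180 and 163.0 CPM in Ag+Costim 1 to 5. It did not overlap either, with a log2 fold change of 0.46 ± 0.13 (SE, edgeR, BH = 0.194). These 4 genes were the members without overlap that were higher in Ag+Costim, and 0 members were lower. Of all genes tested, 4.48% were higher and 1.13% lower without overlap. TMM scaling, used for these values, put the median log2 fold change of genes at 10 CPM or more at 0.24, that of all genes tested at -0.32 and that of the members at 0.30. With total counts in place of TMM these medians were 0.00, -0.65 and 0.0073 in the same order. By that scaling 2 members, Tra2b and Thrap3, were higher in Ag+Costim without overlap, against 2.76% of all genes.

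Other tests called these 4 genes, with many calls among the other genes. DESeq2 called Tra2a (adjusted p = 0.0372), Tra2b (adjusted p = 0.000597), Thrap3 (adjusted p = 4.65e-23) and Bclaf1 (adjusted p = 0.0312), all higher in Ag+Costim. It called 2.58% of genes higher and 19.8% lower in Ag+Costim. In the fit that left out Ag 1, Ag 3 and Ag 4, edgeR called 7.51% of genes higher in Ag+Costim and 5 members, all of them higher. These were Thrap3 (log2 fold change 0.83, BH = 0.00424), Tra2a (0.87, BH = 0.00886), Tra2b (0.64, BH = 0.0413), Bclaf1 (0.50, BH = 0.0453) and Clk2, given above. The Tra2b change was smaller without these libraries, and that of Thrap3 was nearly the same. In bulk samples like these, more cells that express a gene and more RNA per cell cannot be told apart.

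**Figure D3:**
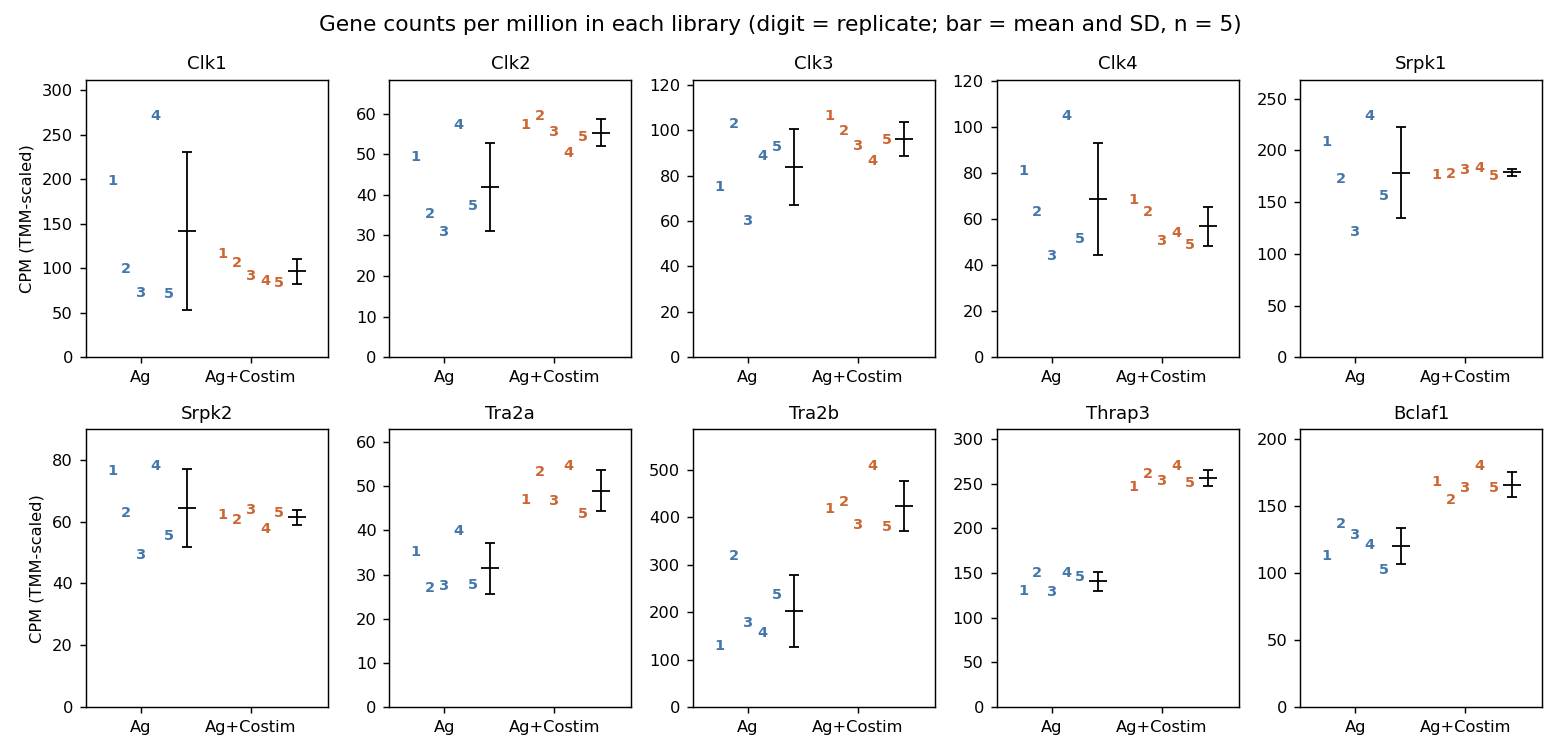
Gene counts as CPM, TMM-scaled, of the 10 genes in each library. Digits are the replicate numbers of the Ag (blue) and Ag+Costim (orange) libraries, and bars are the mean and SD of 5 libraries. The groups do not overlap for Tra2a, Tra2b, Thrap3 and Bclaf1, and Ag 1 and Ag 4 are the highest Ag libraries for Clk1, Clk2, Clk4, Srpk1, Srpk2 and Tra2a.

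Levels can be compared between the genes on a scale per length, TPM (estimated counts divided by transcript length and scaled to a common total). On it Tra2b was highest in Ag+Costim with 207 ± 20 TPM, followed by Thrap3 with 115 ± 2.7, Clk1 with 75.8 ± 11, Srpk1 with 64.4 ± 1.1 and Bclaf1 with 62.5 ± 2.0 (SD, n = 5). Clk3, Clk4, Clk2 and Tra2a followed with 53.8, 47.9, 37.5 and 37.4 TPM, and Srpk2 was lowest with 19.2 ± 1.6 TPM. Among neighbours in this order, the ranges overlapped for Srpk1 and Bclaf1, for Clk3 and Clk4, and for Clk2 and Tra2a, and did not overlap elsewhere. In Ag the order was led by Clk1 (133 ± 106 TPM) and Tra2b (115 ± 23 TPM), and the levels of Clk1 ran from 41.2 to 274 TPM.

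The poison exons of Tra2b, Tra2a and Bclaf1 each hold the stop codon of an annotated NMD transcript. The exon of Tra2b is 276 nt (chr16:22258986-22259261), that of Tra2a 306 nt (chr6:49252803-49253108) and that of Bclaf1 162 nt (chr10:20332396-20332557). Their stops are shown in capitals, since they are what makes each exon a poison exon.
Tra2b-206 (chr16:22259167-22259196, minus strand): gctcaggaataagTGAagctgaaatttgaa
Tra2a-202 (chr6:49252951-49252980, minus strand): aagattggtcagaTAGaagcacttgaatat
Bclaf1-208 (chr10:20332420-20332449, plus strand): ggcttatggtggaTGAggacaaaaactttg
AGAA, a short form of the GA-rich sequence that Tra2 proteins bind, was counted on the transcript strand only, and matches that overlap by 1 base each counted. It occurred 13 times in the Tra2a exon and 12 times in the Tra2b exon, or 4.25 and 4.35 times per 100 bases. It occurred 1 time in the Bclaf1 exon. Of 1251 annotated poison exons, 54.4% held AGAA, with a median of 0.546 per 100 bases, and 1.28% and 0.96% were as dense as those of Tra2a and Tra2b. The 30 bases richest in AGAA, in capitals, show how closely the copies lie, and 4.18% of poison exons hold a window with as many as 3.
Tra2a (chr6:49252859-49252888, minus strand): aaactcaatgaAGAAtgaagAGAAgtAGAA
Tra2b (chr16:22259052-22259081, minus strand): tgaaAGAAgtcAGAAtttgaaacggaAGAA

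Inclusion of the Tra2b poison exon was 20.6%, 12.8%, 9.2%, 16%, and 8.5% in Ag 1 to 5 and 8.93%, 5.14%, 7.34%, 4.56% and 8.98% in Ag+Costim 1 to 5. Ag 5 lay within the Ag+Costim range and the other Ag libraries above it. The means were 13.4% ± 5 and 6.99% ± 2.1 (SD, n = 5, exact permutation p = 0.0317, BH = 0.641 over 1251 exons). After Ag 1, Ag 3 and Ag 4 were left out, the difference was -3.66 percentage points and no longer passed 0.05. The NMD share of Tra2b counts, 12.8% in Ag against 6.88% in Ag+Costim, followed the exon (exact permutation p = 0.0317, BH = 0.74). By counts per transcript length its groups did not overlap, with a difference of -9.27 percentage points (exact permutation p = 0.00794).

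Gains of Tra2b in Ag+Costim were on its coding transcripts. These held 97.3, 273, 155, 124 and 213 CPM in Ag 1 to 5 and 374, 406, 351, 482 and 342 CPM in Ag+Costim 1 to 5, without overlap. The share of all genes whose coding counts were without overlap is not given here, so this is not shown to be particular to the members. NMD transcripts of Tra2b held 24.7 ± 9.3 CPM in Ag against 28.6 ± 6.4 CPM in Ag+Costim, with overlap (SD, n = 5). The lower share thus stood beside NMD amounts that overlapped between the groups. The main coding transcript, Tra2b-204, took 83.2% of counts in Ag and 91.6% in Ag+Costim (exact permutation p = 0.0238, BH = 0.419). Retained intron transcripts took 3.23%, 1.22%, 2.8%, 3.04% and 0.899% in Ag 1 to 5 and 0.531% to 0.831% in Ag+Costim, a difference of -1.54 percentage points (exact permutation p = 0.00794). That difference was -0.36 percentage points without Ag 1, Ag 3 and Ag 4. Tra2b introns of 554 and 1731 nt, kept by Tra2b-208, were included at 2% in Ag against 0.599% in Ag+Costim.

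Tra2a showed the same split between kinds of transcript. Its coding transcripts held 15.7, 16.4, 18, 13.9 and 21.6 CPM in Ag 1 to 5 and 32.6, 42.4, 35.1, 46.6 and 32.2 CPM in Ag+Costim 1 to 5. They were without overlap, again with no share of all genes for comparison. Retained intron transcripts held 18, 9.48, 8.38, 24.5 and 4.82 CPM in Ag 1 to 5 and 7.3 to 10.9 CPM in Ag+Costim. As a share of Tra2a counts these were 51.4%, 35.2%, 30.6%, 61.3% and 17.4% in Ag 1 to 5 and 13.3% to 23.2% in Ag+Costim. Ag 1 and Ag 4 were highest and Ag 5 was within the range of Ag+Costim. The difference was -19.2 percentage points (exact permutation p = 0.0397) and -6.30 without Ag 1, Ag 3 and Ag 4 (exact permutation p = 0.333). Most of this was Tra2a-203, of 3788 nt, which runs from the first exon into the first intron and has no complete intron to keep. It took 34.3% in Ag against 16.5% in Ag+Costim (exact permutation p = 0.0397, BH = 0.46), with 34.7% in Ag 2 and 12.8% in Ag 5, and the annotation does not tell whether it is unspliced RNA or a transcript that ends early. Tra2a-201 and Tra2a-204, both coding, took 42.2% and 14.5% in Ag against 51.3% and 25.4% in Ag+Costim. The Tra2a poison exon was included at 6.4% ± 0.9 in Ag against 4.18% ± 3.0 in Ag+Costim (SD, n = 5, exact permutation p = 0.167).

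**Figure D4:**
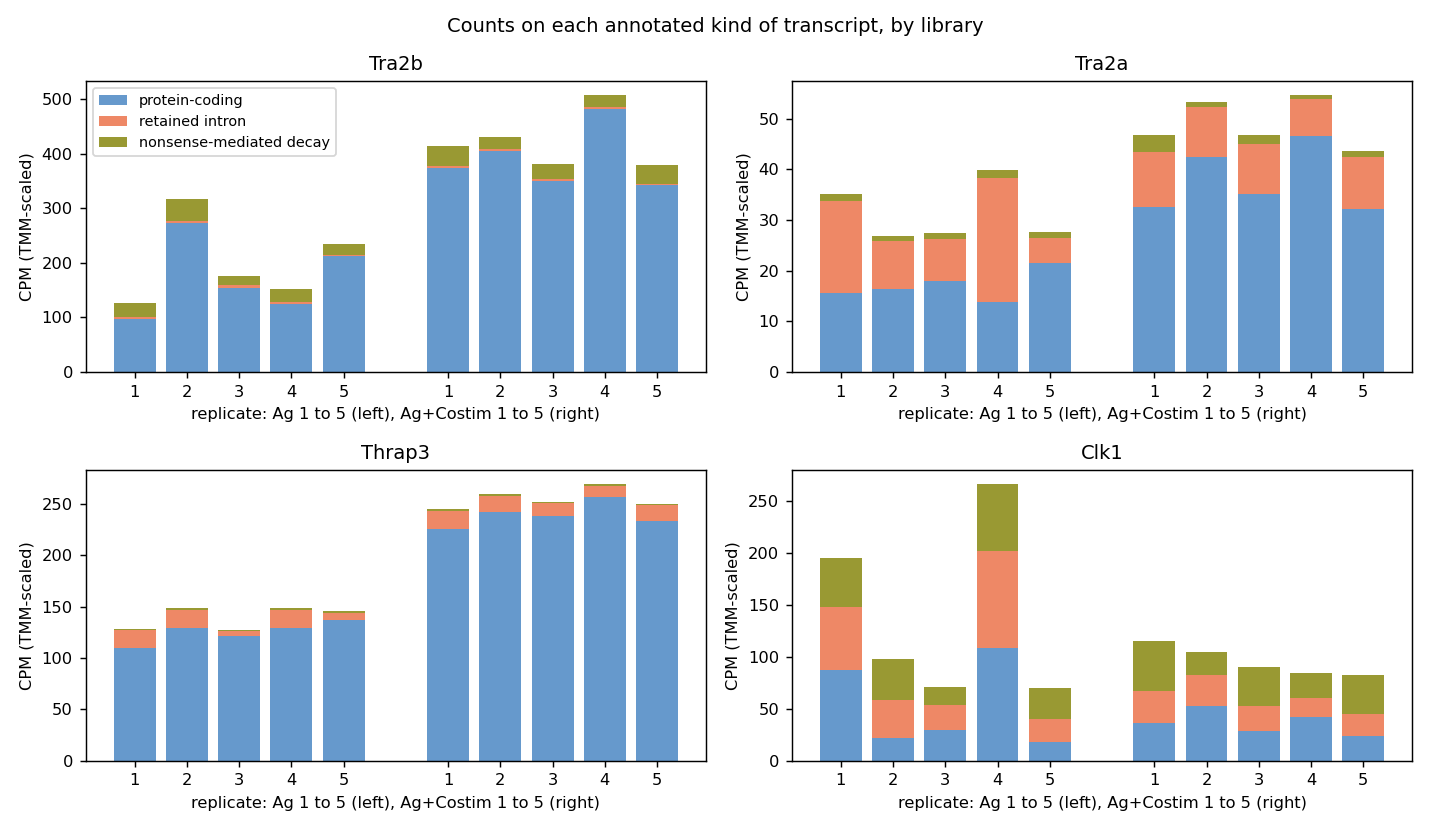
Counts as CPM, TMM-scaled, on coding (blue), retained intron (orange) and NMD (olive) transcripts of Tra2b, Tra2a, Thrap3 and Clk1, stacked for each library, with Ag 1 to 5 left and Ag+Costim 1 to 5 right in each panel. The coding part of Tra2b, Tra2a and Thrap3 is higher in all Ag+Costim libraries than in any Ag library, and the bars of Clk1 are tallest in Ag 1 and Ag 4. How often this holds among all genes is not shown.

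Thrap3 kept a single main transcript. Thrap3-201 held 78.5%, 80.9%, 64.2%, 78% and 77.9% of its counts in Ag 1 to 5 and 85.4%, 85.8%, 85.1%, 89.4% and 89.3% in Ag+Costim 1 to 5, without overlap (exact permutation p = 0.00794, BH = 0.31). Its coding transcripts together held 125 CPM in Ag against 239 CPM in Ag+Costim, and its retained intron transcripts 12.9 and 14.4 CPM. The retained intron share was 9.12% ± 4.5 in Ag against 5.65% ± 1.2 in Ag+Costim (SD, n = 5, exact permutation p = 0.159). Thrap3-203, another coding transcript, held 12.1% in Ag against 5.5% in Ag+Costim, and Thrap3-211, typed as retained intron, 8.2% and 4.7%.

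Bclaf1 carried more NMD transcript than the other SR-rich members. Bclaf1-208, with the poison exon of 162 nt, held 37.6%, 32.9%, 36.7% and 31.7% of Bclaf1 counts in Ag 1 to 4 and 29.7% to 40.7% in Ag+Costim, but 0% in Ag 5. In Ag 5 another transcript, Bclaf1-203, held 39.8%, against at most 0.303% in every other library. Inclusion of the poison exon was accordingly 0.624% in Ag 5 and 30.9% to 47.4% elsewhere (exact permutation p = 0.841 between the groups). Retained intron transcripts of Bclaf1 held 8.45%, 3.26%, 14%, 8.56% and 6.91% in Ag 1 to 5 and 1.83% to 3.46% in Ag+Costim. Only Ag 2 was within the Ag+Costim range (difference -5.69 percentage points, exact permutation p = 0.0159). Without Ag 1, Ag 3 and Ag 4 the difference was -2.54 percentage points. The amount on these transcripts was 9.86 ± 5.1 CPM in Ag against 4.18 ± 0.9 CPM in Ag+Costim (SD, n = 5), while coding transcripts held 72.8 and 101 CPM. The main coding transcript, Bclaf1-201, took 52% of counts in Ag, with 59.3% in Ag+Costim (exact permutation p = 0.111).

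The NMD share and the poison exons gave no member without overlap, of 10 genes and 8 exons. Over all genes, 0.738% had an NMD share without overlap that was higher in Ag+Costim and 0.461% one higher in Ag, of 3252 measured. Poison exon inclusion was without overlap and higher in Ag+Costim for 0.4% of exons and higher in Ag for 1.28%. The test of transcript usage across all transcripts of a gene (edgeR diffSpliceDGE) called 0.297% of 10441 genes and 0 of the 10 members. Bclaf1 had a gene-level adjusted p of 0.0185 in it, but its largest change of a transcript's mean share was 7.95 percentage points, short of the 10 required. Tra2a had the largest change, 17.8 percentage points, with an adjusted p of 1. The share of Bclaf1-203 was high in Ag 5 alone, and without Ag 5 the adjusted p of Bclaf1 was 0.531. Bclaf1 was called when Ag 1, Ag 3 and Ag 4 were left out (largest change 19.9 percentage points, BH = 0.00079), where 3.25% of genes were.

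The authors' splicing table gave percent spliced in (PSI) once per group, so its differences carry no test. It listed 132 events of the members, 104 of them core exons and 0 retained introns. PSI differed by more than 0.05 in 10 of the 132 events (7.58%), 5 in each direction. The share was 11.9% over all 138940 events and 6.70% over events in genes at 10 CPM or more. Most of the 10 were paired starts or ends of the same gene, where a higher value goes with a lower value at the partner. The even split in direction therefore follows largely from the measure. Of the 104 core exons 1 (0.962%) was past this limit, against 5.50% of core exons of all genes and 1.88% of those in genes at 10 CPM or more. It was an exon of Bclaf1 of 147 nt (chr10:20334499-20334645) at 0.631 in Ag against 0.543 in Ag+Costim. From transcript counts, its inclusion was 57.4%, 62.7%, 49%, 63.3% and 96.7% in Ag 1 to 5. In Ag+Costim it was 55% to 66.3% (exact permutation p = 0.794), so only Ag 5 lay above that range. The other events past the limit were starts and ends of transcripts and a donor site. A Clk2 start had 0.913 in Ag against 0.761 in Ag+Costim. A Clk4 end within the last exon had 0.0594 in Ag against 0.205 in Ag+Costim. A donor choice of 6 nt in Tra2a had 0.522 in Ag against 0.617 in Ag+Costim. An end of Tra2a had 0.355 in Ag against 0.431 in Ag+Costim, and an end of Bclaf1 had 0.444 against 0.542. PSI of the alternative Clk exon was 0.756 and 0.785 in Clk1, 0.889 and 0.904 in Clk2, 0.897 and 0.921 in Clk3, and 0.651 and 0.664 in Clk4, in Ag and Ag+Costim in that order. All 4 of these pooled values were slightly higher in Ag+Costim, each by less than 0.03. Inclusion of the same exons from the transcript counts of each library was lower on average in Ag+Costim in 3 of the 4. It was 52.4% and 51.7% in Clk1, 72.1% and 71.2% in Clk2, 96.1% and 96.9% in Clk3, and 87.9% and 86.1% in Clk4 (exact permutation p = 0.992, 0.857, 0.413 and 0.294). The most included core exons of Clk1, Clk4, Tra2a and Tra2b were above 0.99 in both groups.

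**Figure D5:**
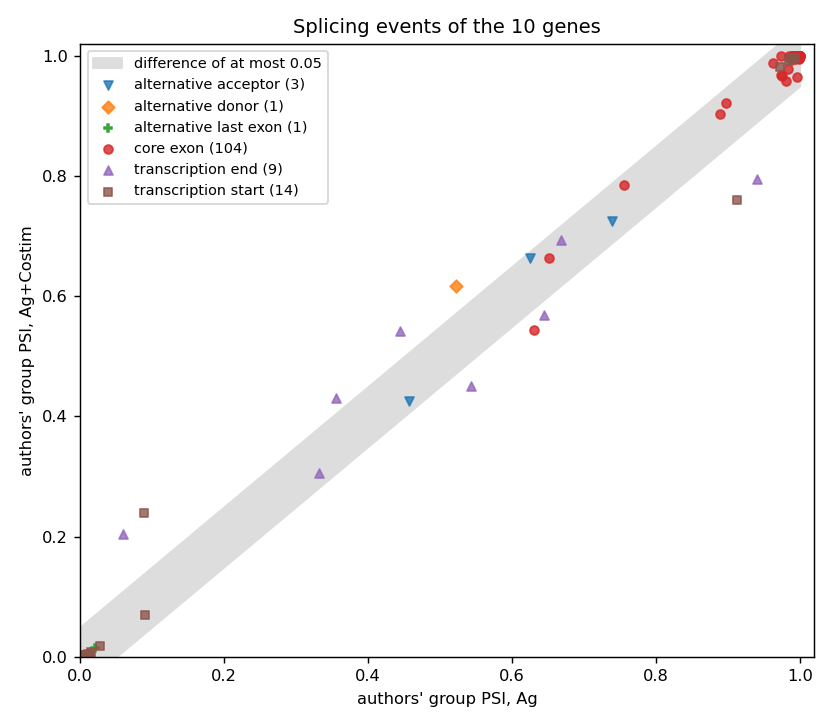
The authors' group PSI of 132 splicing events of the 10 genes, Ag on the x axis and Ag+Costim on the y axis, with 1 marker shape for each kind of event and a grey band for differences of at most 0.05. Most core exons lie near 1 in both groups, and 10 events lie outside the band.

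The genes most like Clk1 and Tra2b over the libraries were found by correlation of log2 CPM among 8625 genes. For Clk1 these were Slc26a11 (r = 0.991), Pitpnc1 (0.987), Wdr13 (0.986), Btg2 (0.984) and Gramd1a (0.978). For Tra2b they were Haus3 (r = 0.987), Vdac1 (0.986), Atad1 (0.985), Fgfr1op (0.984) and Srrt (0.983). All of these correlations rest on the same 10 libraries. Among the members, Tra2b, Thrap3 and Bclaf1 correlated at 0.848 to 0.898 with each other, and Clk1, Clk4, Srpk1 and Srpk2 at 0.818 to 0.962. The 2 sets were not separate from the rest. Tra2a correlated at 0.88 with both Thrap3 and Clk2, at 0.762 with Bclaf1 and at 0.624 with Tra2b. Clk2 correlated at 0.723 with Srpk1. These values hold the difference between the groups as well as the spread within them. Clk1 and Tra2b correlated at -0.53.

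By TMM scaling, substrates and partners of the kinases were mostly higher in Ag+Costim on average, and 0 of them passed the edgeR test. The median log2 fold change of all genes at 10 CPM or more was also positive, at 0.24, and was 0.00 by total counts. Medians of the lists other than the SR proteins were near or below 0.24, so their direction does not set them apart. The share of all such genes that were higher is not given here. Of 11 SR proteins, 10 were higher and 1 lower, with a median log2 fold change of 0.52 against 0.24 for all genes at 10 CPM or more. Srsf1, a general and alternative splicing factor, was without overlap (195 ± 61 CPM in Ag against 346 ± 37 CPM in Ag+Costim, SD, n = 5, edgeR adjusted p = 0.193). The 11 SR proteins summed to 1464 and 1605 CPM in Ag 1 and Ag 4, the lowest of all libraries, and to 3234 and 3356 CPM in Ag 2 and Ag 5, within or next to the 3251 to 3851 CPM of Ag+Costim. Of 7 further kinases and phosphatases of SR proteins, 5 were higher and 2 lower, with a median of 0.30. Ppp1cb, a catalytic subunit of protein phosphatase 1, was without overlap (log2 fold change 0.61, BH = 0.218). Of 18 other SR-rich proteins of the spliceosome and speckles, 13 were higher and 5 lower, with a median of 0.27. Without overlap among them were the speckle protein Srrm1 (0.57, BH = 0.204), the U1 component Snrnp70 (0.74, BH = 0.147) and the 3′ splice site factor U2af1 (0.80, BH = 0.244). Of 6 other genes known for retained or detained introns, 3 were higher and 3 lower, with a median of 0.09.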

How the data were processed

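Poly(A) RNA had been amplified with SMART-Seq v4 and prepared with Nextera XT. The authors aligned reads to mm10 with HISAT2 2.1.0, sorted them with SAMtools 1.9 and deposited StringTie 2.1.0 gene and transcript tables. Each deposited value is an estimated count that StringTie derived from read coverage for the authors, not normalized, so totals are not numbers of reads. Whether the counting used strand is not given in the sources used here. Members that overlap other genes are Clk3, Clk4, Srpk2, Tra2a and Thrap3. The authors' splicing table (Whippet) holds 1 PSI fraction per group. Its columns with the authors' own differences, probabilities and entropy were not used. With 1 value per group, PSI could not be tested. All 55536 genes and 141862 transcripts matched GENCODE M21, whose coordinates are used. A further 26345 entries without an annotated gene, 0.046% to 0.308% of counts, were left out.

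Gene counts were tested with edgeR 4.0.16 in R 4.3.3 (quasi-likelihood, robust, filterByExpr, TMM) over all genes, with BH adjustment and a threshold of 0.05. DESeq2 1.42.0 and limma 3.58.1 were alternatives. Usage was tested with diffSpliceDGE, where a call also needed a change in a mean share over 10 percentage points. Shares and inclusion were taken per library from transcript counts where a gene or event had at least 50 counts in every library. Groups were compared by exact permutation, two-sided, over all 252 assignments (SciPy 1.17.1), adjusted over all genes or events. A retained intron here is an intron of a coding transcript that a transcript typed retained intron covers. A poison exon is an internal exon of an NMD transcript that lies in an intron of the coding transcripts. Sequences are from the GENCODE M21 transcripts (mm10). The scripts were tested on simulated data.

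All 10 members are named. Their transcripts are named at a mean share of 10% in either group, or 5% for retained intron and NMD types, which took 29 of 114 transcripts. The others stayed at or under 8.75%, and 5 were at 0. Events are named past a PSI difference of 0.05, with 1 of each pair of starts or ends given. Likeness used the 5 highest correlations. The members and lists were chosen with earlier results of these data known. Leaving out Ag 1, Ag 3 and Ag 4 was chosen after seeing the data. Replicate numbers did not pair the samples (correlations of deviations between -0.291 and 0.257), and the labels tie no sample to an animal, so p-values measure the spread between these samples. Intervals from estimated counts were not computed.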

Additional observations from a re-analysis of the deposited data

Results flagged for a closer look

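Among 46 groups of 5 libraries tested for a single library far from the rest (Dixon's ratio above 0.71), 2 stood out, and chance gives about 1 in 20. The NMD share of Bclaf1 was 1.11% in Ag 5, while the other Ag libraries held 34% to 41.5%, as given above with Bclaf1-208 and Bclaf1-203. The retained intron share of Clk1 was 21.3% in Ag+Costim 4, while the other Ag+Costim libraries held 26% to 27.4%. Without Ag+Costim 4, the difference of the Clk1 share between groups was -6.94 percentage points.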

How the results depend on the processing

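edgeR called 0 genes and 0 members in every scaling, filter and leave-one-out alternative and with the replicate block. Counts of genes called were 8064 of 36101 with DESeq2, 12311 of 24262 with limma voom weights and 2752 of 25394 without Ag 1, Ag 3 and Ag 4. Members called were 4, 6 and 5 in that order. With voom weights, Clk1 (-1.05) and Clk4 (-0.58) were among them and lower. Members without overlap in CPM were 2 by total counts and 2 by upper quartile, and 4 to 5 with 1 library left out. Of all genes, 670 and 360 of 24262 were higher in Ag+Costim without overlap by these 2 scalings. With 1 library left out, 1103 to 1904 genes were, of 24533 to 27723 tested. Genes with changed usage were 145 with limma diffSplice, 19 with a stricter filter, 33 to 93 with 1 library left out, and 366 without Ag 1, Ag 3 and Ag 4. That last alternative called 1 member. Members with an NMD share without overlap were 1 per transcript length and 0 to 1 with 1 library left out, higher in Ag where present. Over all genes, 0.584% were higher in Ag per transcript length and 0.646% to 1.91% with 1 library left out. Member introns and poison exons without overlap that were higher in Ag were 6 without Ag 1, Ag 3 and Ag 4. They were 3 to 7 with 1 library left out. Over all introns and all poison exons, the shares higher in Ag were 4.1% and 4.08% without Ag 1, Ag 3 and Ag 4. With 1 library left out they ran from 2.35% to 10.3% of introns and from 1.36% to 3.76% of poison exons. Without Ag 1, Ag 3 and Ag 4, 8 introns and 1 poison exon of the members were higher in Ag+Costim without overlap, beside 19.9% of all introns and 14.8% of all poison exons. At a PSI difference over 0.1, 4 member events (3.03%) were past the limit, against 5.87% of all events and 3.18% of events in genes at 10 CPM or more.

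Directions changed for some values, and the cause was not tested. Without Ag 1, Ag 3 and Ag 4, log2 fold changes were 0.21 (Clk1), 0.017 (Clk4) and 0.086 (Srpk2). Retained intron shares then differed by 4.64 (Clk4) and 18.6 (Clk3) percentage points, and the Clk1 NMD share by -5.56. Introns of Clk3 differed by 7.92 and 19.2 and both introns of Clk4 by 3.57 points. Clk3 was at -0.058 by total counts and -0.027 by upper quartile. Srpk1 was at -0.14 with DESeq2 size factors and in DESeq2, -0.31 by total counts, -0.25 by upper quartile and -0.22 with voom weights. Srpk2 was at 0.22 without the filter. With 1 library left out, the ranges were -0.10 to 0.13 for Srpk1, -0.15 to 0.0196 for Srpk2, -1.87 to 16 points for the Srpk1 and -9.01 to 3.04 for the Clk3 retained intron share, -0.75 to 9.35 for the Bclaf1 and -1.83 to 0.67 for the Clk2 NMD share, -9.46 to 3.11 for the Clk3 intron of 2100 nt and -3.83 to 7.85 for the Bclaf1 poison exon.

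The Tra2a retained intron share passed 0.05 in only 3 of 10 such alternatives, with -24.7 to -13.7 points, and that of Clk1 in all 10, with -8.67 to -6.94 points. With the replicate block, 30 genes and 0 members had changed usage, while for shares the exact permutation p of the block cannot go below 0.0625, so none could pass. The Bclaf1 usage test had an unadjusted p of 0.838 with the block. Ag 3 had the lowest depth, 59.6 M counts.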
